A study of Mus musculus with 24 samples.

Results

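The genes described here are 51 genes of autophagy and of the lysosome, followed in mouse liver in a study of diet and fatty acid lineage. They were chosen by symbol: a probe belonged to a member when the gene name that the scanner files give it was that symbol. All 51 symbols were on the array, with 108 probes, and 99 of these probes were bright enough to be tested, at least 1 for every member. The members make up 51 of 20192 gene symbols with a tested probe. Of the members, 21 had 1 tested probe and 30 had several, and a gene was described on the brightest of its tested probes. That probe was well above background on all 24 arrays for each of the 51 members.

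Autophagy is the process by which a cell wraps part of its content in a double membrane and delivers it to the lysosome to be broken down. In the liver it is known to rise during fasting, when it supplies amino acids and, by breaking down lipid droplets, fatty acids. A kinase complex (ULK1) starts it, a lipid kinase complex around beclin 1 marks the membrane, and conjugation enzymes attach proteins of the ATG8 family to it. Receptors bring the cargo, and acid hydrolases of the lysosome digest it. The kinase complex mTORC1 holds the process back in the fed state, and the transcription factors TFEB, TFE3 and MITF switch on genes of both autophagy and the lysosome.

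Liver RNA of 24 male C57Bl6J mice was measured, 1 one-colour (Cy3) array per mouse. The mice were the third generation of 2 lineages and were killed while fasting. The reference group (9 mice, labelled STD_Cont) was of the control fatty acid lineage, given high-oleic sunflower oil, and was fed the standard low-fat diet. The HFoleic group (8 mice, HFD_Cont) was of the same lineage and was fed the high-fat, obesogenic diet (HFD). The HFepa group (7 mice, HFD_O3) was of the n-3PUFA lineage, given an EPA-rich fish oil (EPA is eicosapentaenoic acid), and had the same high-fat diet. The samples include no mice of the EPA lineage on the low-fat diet, so HFepa differs from the reference group in diet and lineage at once, and the comparisons with the reference group share its 9 mice. All values below are log2 of the normalized median signal of a probe, a scale on which a difference of 1 is a doubling, and such levels are not set against each other between genes.

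One reference mouse stood apart. Over the 30003 tested probes, the array of reference replicate 5 correlated at a mean of 0.977 with the other reference arrays, against 0.987 to 0.994 for each other array within its own group. It held the highest or the lowest reference value of 35 of the 51 members, whereas any other array did so in its own group for 4 to 22. Markers of stellate cells averaged 10.23 in it against 8.80 to 9.63 in the other 23 mice, and markers of bile duct 8.07 against 6.36 to 7.09. Values without this mouse are given for the members called in HFoleic and for some others. The 7 hepatocyte markers averaged 16.52 to 16.76 in reference, 16.35 to 16.57 in HFoleic and 16.35 to 16.65 in HFepa mice, and 2 of them (Cps1 and Tat) were lower in HFoleic. The 9 tested markers of Kupffer cells and macrophages, cells rich in lysosomes, averaged 10.28 to 11.45, 10.55 to 11.41 and 10.80 to 11.60, and none was called in any comparison. Of the stellate markers 1 of 5 (Lrat, higher) and of the bile duct markers 1 of 3 (Sox9, lower) was called in HFoleic. The part of these cells in the results was not tested. In whole liver, fewer cells of a type and less RNA per cell cannot be told apart.

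A promoter window from RefSeq (GRCm38.p6, 250 bases before to 50 after the start of a gene) was found for 43 of the 51 members. TFEB binds the CLEAR motif, whose core TCACGTGA, the same on both strands, contains the E-box CACGTG. The core was in the window of 4 of the 43 members (Atg3, Ctsa, Ctsd and Mcoln1), or 9.3%, and in 1.12% of 27025 gene symbols. The E-box was in 10 of the 43 (23.3%), against 8.09% of all symbols: besides these 4, in Atg5, Atg7, Atg14, Bnip3, Ctsl and Lamp1. The windows below are shown because Gabarapl1 and Atg14 are described further on as higher under the high-fat diet, Lamp1 has the most E-boxes of the 43 members, and Ctsd serves as an example of the 4 members with a full core. The windows lie at chr6:129532942-129533241 (plus strand, Gabarapl1), chr14:47568385-47568684 (minus, Atg14), chr8:13158911-13159210 (plus, Lamp1) and chr7:142387778-142388077 (minus, Ctsd). Each is written 5′ to 3′ along its gene, with every E-box in capitals.
Gabarapl1: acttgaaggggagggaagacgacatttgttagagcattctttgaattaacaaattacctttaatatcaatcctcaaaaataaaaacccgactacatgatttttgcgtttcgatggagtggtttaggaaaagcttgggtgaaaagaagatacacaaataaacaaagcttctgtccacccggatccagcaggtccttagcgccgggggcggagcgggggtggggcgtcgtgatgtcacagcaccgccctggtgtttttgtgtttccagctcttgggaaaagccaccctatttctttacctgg
Atg14: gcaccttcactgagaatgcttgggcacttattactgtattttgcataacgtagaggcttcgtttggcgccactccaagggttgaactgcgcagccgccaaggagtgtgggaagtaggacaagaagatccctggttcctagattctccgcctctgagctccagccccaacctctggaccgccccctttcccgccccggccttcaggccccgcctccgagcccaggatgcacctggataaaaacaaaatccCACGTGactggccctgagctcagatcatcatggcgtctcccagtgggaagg
Lamp1: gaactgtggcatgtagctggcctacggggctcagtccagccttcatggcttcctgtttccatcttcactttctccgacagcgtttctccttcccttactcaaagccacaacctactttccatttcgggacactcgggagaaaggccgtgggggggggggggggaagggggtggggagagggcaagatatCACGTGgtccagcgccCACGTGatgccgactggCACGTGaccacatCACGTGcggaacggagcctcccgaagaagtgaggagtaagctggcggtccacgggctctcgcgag
Ctsd: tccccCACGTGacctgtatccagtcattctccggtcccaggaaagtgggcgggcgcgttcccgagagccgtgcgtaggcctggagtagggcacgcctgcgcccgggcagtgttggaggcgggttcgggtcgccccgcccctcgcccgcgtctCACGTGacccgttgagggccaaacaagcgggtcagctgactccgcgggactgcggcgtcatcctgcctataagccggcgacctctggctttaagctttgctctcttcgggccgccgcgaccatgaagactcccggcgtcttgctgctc
Of the 7 members that passed the test below, only Atg14 had an E-box in its window, next to the annotated start, and none had the full core. Lamp1 had 4 E-boxes, all within 61 bases before the start, and Ctsd had 2. A match is a description of the letters, not of binding.

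The first question is how the high-fat diet changed these genes within the control lineage. Between HFoleic and reference, 7 of the 51 members passed the test (limma across all probes, adjusted p under 0.05), or 13.7%. Among all 20192 gene symbols the share was 8.07%, with 4.52% higher and 3.55% lower in HFoleic. Higher were Gabarapl1, Atg14, Ulk2 and Atg4a, and lower were Atg2a, Optn and Gusb. The changes were small, none beyond 1.34-fold, and they went in both directions: 26 of the 51 members had a difference above 0, and the median difference was 0.005 on the log2 scale (-0.006 over all gene symbols). At an unadjusted p under 0.05 stood 18 members (35.3%), against 22.3% of all symbols. The second question is how HFepa differed from reference. These groups differ in both diet and lineage, so their comparison cannot give the effect of the diet within the EPA lineage. Between HFepa and reference, 1 member (Atg14) passed, against 0.391% of all symbols (0.198% higher, 0.193% lower). The median difference of the members was 0.04 there, against 0.001 over all symbols, and 14 members (27.5%) had an unadjusted p under 0.05 against 14% of all symbols. Without reference replicate 5, 7 members were called in HFoleic (5 of the same), where 8.19% of all symbols were, and none in HFepa, against 0.258%, with 11 members of HFepa at an unadjusted p under 0.05.

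**Figure D1:**
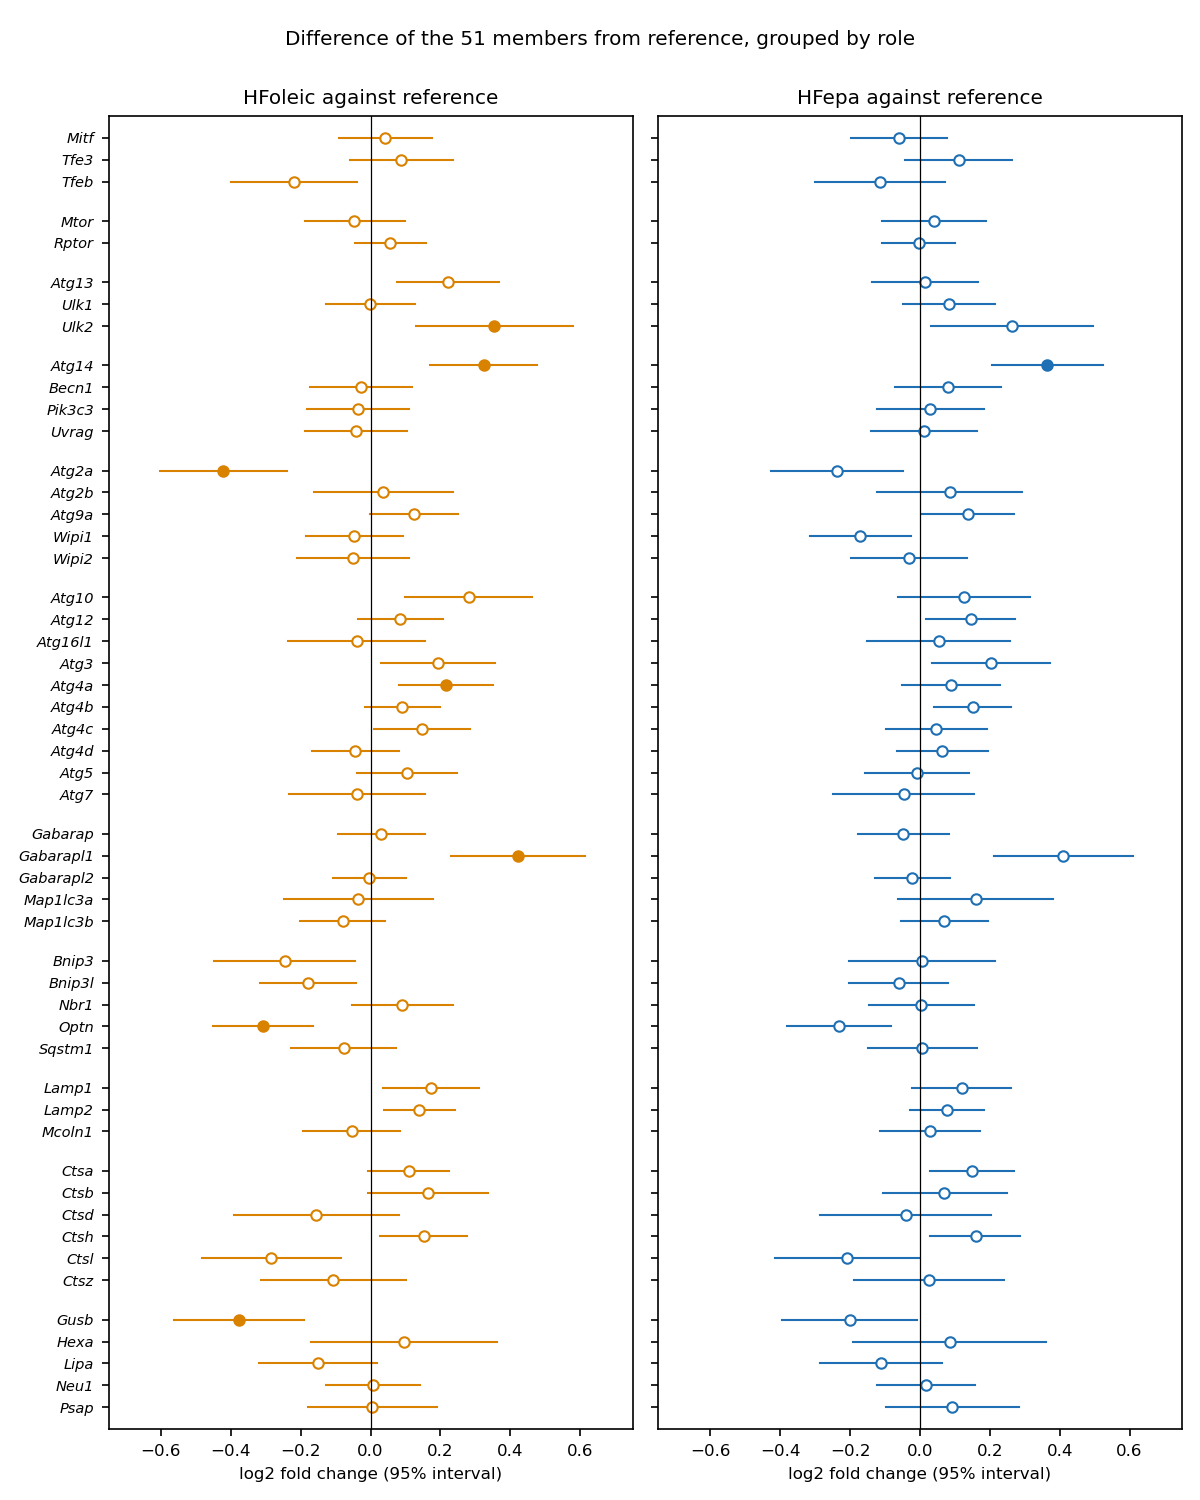
Log2 fold change of the brightest probe of each of the 51 members against the reference group, with its 95% interval, in HFoleic (left, 8 mice) and HFepa (right, 7 mice), in blocks by role from transcription factors at the top to hydrolases at the bottom. Filled points passed the test, 7 on the left and 1 on the right, and no point lies beyond 0.42 in size.

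Neither the lysosomal transcription factors nor mTORC1 passed the test. Tfeb was 8.02 to 8.82 (median 8.31) in reference, at most 8.34 (median 8.04) in HFoleic and 8.08 to 8.42 (median 8.16) in HFepa. The groups overlapped, and the difference of HFoleic from reference was -0.22 ± 0.09 (SE; adjusted p = 0.138). This brightest Tfeb probe was designed on a predicted transcript and lies 28.6 to 32.7 kb from the 3 dimmer Tfeb probes, whose differences in HFoleic were 0.02 to 0.08, so the symbol has no single direction. Tfe3 and Mitf differed from reference by 0.09 and 0.04 in HFoleic, and by 0.11 and -0.06 in HFepa. Mtor, the kinase of mTORC1, differed by -0.05 ± 0.07 in HFoleic (adjusted p = 0.776) and 0.04 ± 0.07 in HFepa (adjusted p = 0.874), with a 95% interval from -0.19 to 0.10 in the first. Its partner Rptor was likewise within 0.06 of reference in both groups.

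Among the initiation genes, Ulk2 rose in HFoleic while its better known relative Ulk1 did not pass. Ulk2, a kinase of the initiation complex, was 9.60 to 10.75 (median 10.18) in reference, 10.31 to 10.66 (median 10.44) in HFoleic and 10.14 to 10.61 (median 10.36) in HFepa. The high-fat mice lay close together inside the wide reference range, and all 8 HFoleic and all 7 HFepa mice were above the reference mean. The rise in HFoleic was 0.35 ± 0.11 (1.28-fold, adjusted p = 0.0468), and HFepa differed by 0.26 ± 0.11 (adjusted p = 0.297). The call was slight: it was lost without reference replicate 5 (0.29, adjusted p = 0.0758) and in 18 of the 24 fits that left out 1 mouse. Of these fits, those without a HFepa mouse keep the HFoleic difference and alter only its SE and p, here and below. By slide, the HFoleic difference was 0.58, 0.42 and 0.07. A second Ulk2 probe gave 0.28 (adjusted p = 0.0942).

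Ulk1 itself was 12.92 to 13.12 in reference, 12.71 to 13.19 in HFoleic and 12.91 to 13.21 in HFepa, a difference of -0.001 in HFoleic with a 95% interval from -0.13 to 0.13. Atg13, the adaptor that holds the complex together, stood just outside the threshold in HFoleic, at 12.02 to 12.41 in reference and 12.15 to 12.59 in HFoleic (0.22 ± 0.07, adjusted p = 0.0558). In HFepa it was 12.08 to 12.45, or 0.02 from reference. Atg13 also had the smallest p of the members between the high-fat groups, with a difference of -0.21 in HFepa (unadjusted p = 0.0111, adjusted p = 0.351).

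Of the 4 genes of the lipid kinase complex, Atg14 was higher in both high-fat groups and the other 3 did not pass. Atg14 encodes the subunit that directs the complex to the site where autophagosomes form. It was 9.28 to 9.95 (median 9.59) in reference, 9.74 to 10.11 (median 9.88) in HFoleic and 9.80 to 10.05 (median 9.95) in HFepa. Reference replicate 8 (9.95) reached into both high-fat ranges and replicate 9 (9.78) into that of HFoleic, and all 8 HFoleic and all 7 HFepa mice lay above the reference mean. It rose by 0.32 ± 0.07 in HFoleic (1.25-fold, adjusted p = 0.00843) and by 0.36 ± 0.08 in HFepa (1.29-fold, adjusted p = 0.0344).

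Within the 3 slides, each with 2 or 3 mice of every group, the Atg14 difference was 0.23 to 0.40 in HFoleic and 0.32 to 0.41 in HFepa. The HFoleic call held in all 24 fits that left out 1 mouse (0.30, adjusted p = 0.0149, without reference replicate 5). The HFepa call held in 14 of them and was lost without reference replicate 5 (0.34, adjusted p = 0.0556). Becn1 (beclin 1) differed from reference by -0.03 ± 0.07 in HFoleic and 0.08 ± 0.07 in HFepa, at 8.60 to 9.11 in reference, 8.78 to 9.21 in HFoleic and 8.82 to 9.19 in HFepa. Pik3c3, the lipid kinase, differed by -0.04 and 0.03, and Uvrag, the subunit found in place of Atg14 in a second complex, by -0.04 and 0.01.

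The genes that supply and read the growing membrane held the largest fall among the brightest probes of the members. Atg2a, a lipid transfer protein that feeds the growing membrane, was 11.99 to 12.77 (median 12.61) in reference, 11.96 to 12.26 (median 12.15) in HFoleic and 12.09 to 12.52 (median 12.26) in HFepa. Reference replicate 8 (11.99) lay within the HFoleic range, and the other 8 reference mice, from 12.40 upward, did not overlap with HFoleic. Atg2a fell by 0.42 ± 0.09 in HFoleic (1.34-fold, adjusted p = 0.00526), and HFepa differed by -0.24 ± 0.09 (adjusted p = 0.244). The HFoleic fall was -0.56, -0.45 and -0.26 by slide and was called in all 24 fits without 1 mouse (-0.39, adjusted p = 0.0092, without reference replicate 5). Without reference replicate 8 the HFepa difference was -0.31 and passed (adjusted p = 0.0352).

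Its relative Atg2b differed by 0.04 in HFoleic and 0.09 in HFepa. Wipi1, which binds the lipid that the kinase complex makes, was 10.72 to 11.23 in reference, 10.78 to 10.99 in HFoleic and 10.59 to 11.01 in HFepa. It differed by -0.05 ± 0.07 in HFoleic and -0.17 ± 0.07 in HFepa (adjusted p = 0.274). Atg9a, the membrane protein of the seed vesicles, differed by 0.12 and 0.14, and Wipi2 by -0.05 and -0.03.

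Of the 10 conjugation genes, 1 was called in HFoleic (10%), near the 8.07% of all symbols, and none in HFepa, where 0.391% of all symbols were. Of the 10, 7 and 8 had a difference above 0, while the median over all symbols was -0.006 and 0.001. Atg4a, a protease that trims ATG8 proteins before conjugation, was 8.56 to 9.04 (median 8.83) in reference, 8.92 to 9.23 (median 9.00) in HFoleic and 8.81 to 9.01 (median 8.93) in HFepa. All 8 HFoleic mice were above the reference mean, and 3 were above every reference mouse. It rose by 0.22 ± 0.07 in HFoleic (1.16-fold, adjusted p = 0.0446) and differed by 0.09 ± 0.07 in HFepa (adjusted p = 0.631). The call was lost without reference replicate 5 (0.19, adjusted p = 0.0742) and in 15 of the 24 fits that left out 1 mouse.

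Atg10, an enzyme that joins ATG12 to ATG5, came next in HFoleic, at 7.40 to 7.96 in reference and 7.70 to 8.34 in HFoleic (0.28 ± 0.09, adjusted p = 0.0526). In HFepa it was 7.60 to 8.10 (0.13 ± 0.09, adjusted p = 0.602). Atg3, which couples ATG8 proteins to lipid, was 12.27 to 12.98 in reference, 12.76 to 13.07 in HFoleic and 12.79 to 13.06 in HFepa, differences of 0.19 ± 0.08 (adjusted p = 0.148) and 0.20 ± 0.08 (adjusted p = 0.263). Atg4b, the main protease for ATG8 proteins, differed by 0.09 and 0.15 (adjusted p = 0.324 and 0.193). In Atg3 and Atg10, reference replicate 5 was the lowest of all 24 mice, and without it their HFoleic differences were 0.14 and 0.23.

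In the ATG8 family, whose members coat the autophagosome and bind receptors, Gabarapl1 stood apart from the other 4. Gabarapl1 was 15.98 to 16.61 (median 16.18) in reference, 16.28 to 16.81 (median 16.64) in HFoleic and 16.35 to 16.95 (median 16.63) in HFepa. All 8 HFoleic and all 7 HFepa mice were above the reference mean, and reference replicates 8 (16.61) and 9 (16.46) were the only reference mice inside the high-fat ranges. It rose by 0.42 ± 0.09 in HFoleic (1.34-fold, adjusted p = 0.00661). In HFepa the difference was nearly as large, 0.41 ± 0.10 (1.33-fold), and just missed the threshold (adjusted p = 0.0543). A second probe gave 0.40 (adjusted p = 0.0311) and 0.50 (adjusted p = 0.056).

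By slide, the Gabarapl1 difference was 0.37 to 0.49 in HFoleic and 0.35 to 0.53 in HFepa, and the HFoleic call held in all 24 fits without 1 mouse. Without reference replicate 5 the differences were 0.40 (adjusted p = 0.0121) and 0.38 (adjusted p = 0.0839). Map1lc3b, the LC3 protein most used as an autophagosome marker, was 13.65 to 13.87 in reference, 13.47 to 13.92 in HFoleic and 13.68 to 13.98 in HFepa. It differed by -0.08 ± 0.06 in HFoleic (adjusted p = 0.471) and 0.07 ± 0.06 in HFepa (adjusted p = 0.678). Map1lc3a was 10.31 to 11.03, 10.46 to 11.02 and 10.58 to 11.30 in the same groups, with differences of -0.04 ± 0.10 and 0.16 ± 0.11 (adjusted p = 0.894 and 0.562). Gabarap and Gabarapl2 lay within 0.05 of reference in both groups. Paralogs such as these can share sequence, and the binding of a probe to a relative was not tested.

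**Figure D2:**
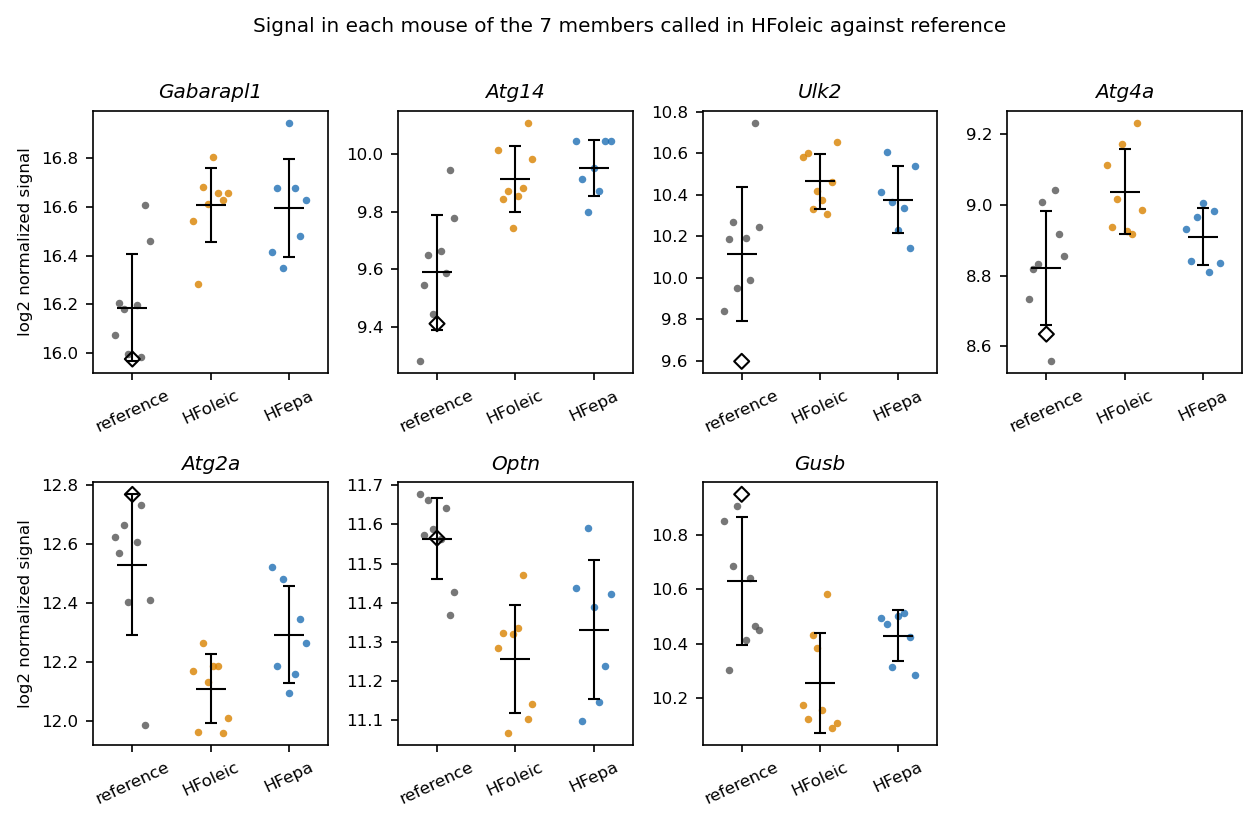
Log2 normalized signal of the brightest probe in every mouse for the 7 members called in HFoleic against reference, with the mean and SD of each group (9 reference, 8 HFoleic and 7 HFepa mice) as a bar with whiskers. The open diamond is reference replicate 5. For Gabarapl1 and Atg14 both high-fat means lie above the reference mean by 0.32 to 0.42. The HFepa mean lies between the reference and HFoleic means in all but Atg14, for Gabarapl1 only just (16.60 against 16.61 in HFoleic). The members were picked by their HFoleic difference, which by itself favours this order.

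Among the cargo receptors, Optn fell in HFoleic and the best known receptor, Sqstm1 (p62), did not pass. Optn (optineurin), a receptor for bacteria and damaged mitochondria, was 11.37 to 11.68 (median 11.57) in reference, 11.07 to 11.47 (median 11.30) in HFoleic and 11.10 to 11.59 (median 11.39) in HFepa. Of the 8 HFoleic mice, 7 were below every reference mouse. It fell by 0.31 ± 0.07 in HFoleic (1.24-fold, adjusted p = 0.00789), and HFepa differed by -0.23 ± 0.07 (adjusted p = 0.135). A second probe gave -0.28 in HFoleic (adjusted p = 0.0183) and -0.16 in HFepa. By slide the HFoleic difference was -0.37 to -0.24, and without reference replicate 5 it was again -0.31 (adjusted p = 0.0116).

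Sqstm1 was 14.73 to 15.30 in reference, 14.82 to 15.20 in HFoleic and 14.95 to 15.17 in HFepa. Its differences were -0.08 ± 0.07 (adjusted p = 0.608) and 0.01 ± 0.08 (adjusted p = 0.987). The mitochondrial receptors Bnip3 and Bnip3l differed by -0.25 ± 0.10 (adjusted p = 0.135) and -0.18 ± 0.07 (adjusted p = 0.103) in HFoleic, and by 0.01 and -0.06 in HFepa. Bnip3 was 14.90 to 15.59 in reference, 14.71 to 15.41 in HFoleic and 15.02 to 15.58 in HFepa, and it passed in HFoleic when reference replicate 5 was left out (-0.30, adjusted p = 0.0431). A dimmer Bnip3l probe passed in HFoleic (-0.25, adjusted p = 0.0457).

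The membrane proteins of the lysosome did not pass on their brightest probes. Lamp1, which lines the lysosomal membrane, was 15.83 to 16.26 in reference, 15.97 to 16.34 in HFoleic and 15.97 to 16.42 in HFepa, with differences of 0.17 ± 0.07 (adjusted p = 0.12) and 0.12 ± 0.07 (adjusted p = 0.477). Lamp2, its relative that also serves chaperone-mediated autophagy, was 13.43 to 13.75, 13.54 to 13.81 and 13.51 to 13.70. Its differences were 0.14 ± 0.05 (adjusted p = 0.0866) and 0.08 ± 0.05 (adjusted p = 0.551). Reference replicate 5 was the highest reference mouse for both, and without it Lamp2 passed in HFoleic (0.16, adjusted p = 0.0308) while Lamp1 stood at 0.20 (adjusted p = 0.0535). Mcoln1, a calcium channel of the lysosome, differed by -0.05 and 0.03.

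None of the 6 proteases passed on its brightest probe, 3 of them had a difference above 0 in HFoleic, and in Ctsl, Ctsd and Ctsb reference replicate 5 was the highest reference mouse. Ctsl (cathepsin L) was 16.20 in reference replicate 5 and 15.27 to 15.51 in the other 8 reference mice, against 14.93 to 15.44 in HFoleic and 15.15 to 15.46 in HFepa. Its difference of -0.28 ± 0.10 in HFoleic (adjusted p = 0.0748) became -0.19 without that mouse (adjusted p = 0.0635), and -0.21 in HFepa became -0.12. Ctsd (cathepsin D) was 14.54 in the same mouse and 13.50 to 14.02 in the other reference mice, 13.53 to 13.99 in HFoleic and 13.50 to 14.30 in HFepa. Its HFoleic difference was -0.16 ± 0.11 with that mouse (adjusted p = 0.474) and -0.07 without it. Ctsb (cathepsin B) was 15.73 in that mouse and at most 15.38 in the others, 15.24 to 15.60 in HFoleic and 15.10 to 15.68 in HFepa, a difference of 0.16 ± 0.08 in HFoleic (adjusted p = 0.26) and 0.22 without it (adjusted p = 0.0595).

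In HFepa, Ctsb and Ctsd differed from reference by 0.07 ± 0.09 and -0.04 ± 0.12. The highest HFepa mouse was replicate 4 for Ctsb (15.68), Ctsd (14.30), Ctsl (15.46) and Lamp1 (16.42) alike. Replicate 2 was the highest HFepa mouse for 11 of the 51 members. Replicate 4 was the highest for 15 and the lowest for 5. The averages of the markers of stellate cells (9.63), Kupffer cells and macrophages (11.60), sinusoidal endothelium (10.45) and other leukocytes (8.53) were also highest in it among HFepa mice. Those of bile duct (6.75), blood (13.31), adipocytes (6.88) and exocrine pancreas (7.45) were not, and that of hepatocytes (16.35) was the lowest. HFepa replicate 6 came close for Kupffer cells and macrophages (11.58) and endothelium (10.40), and it held the highest HFepa value of 1 member. A score of clock genes, described further on, was also highest in replicate 4 (3.82). Ctsa, a carboxypeptidase that also protects neuraminidase, and Ctsh, an aminopeptidase, differed from reference by 0.11 and 0.15 in HFoleic and by 0.15 and 0.16 in HFepa, with adjusted p from 0.133 to 0.27. The part of other cell types in these values was not tested.

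**Figure D3:**
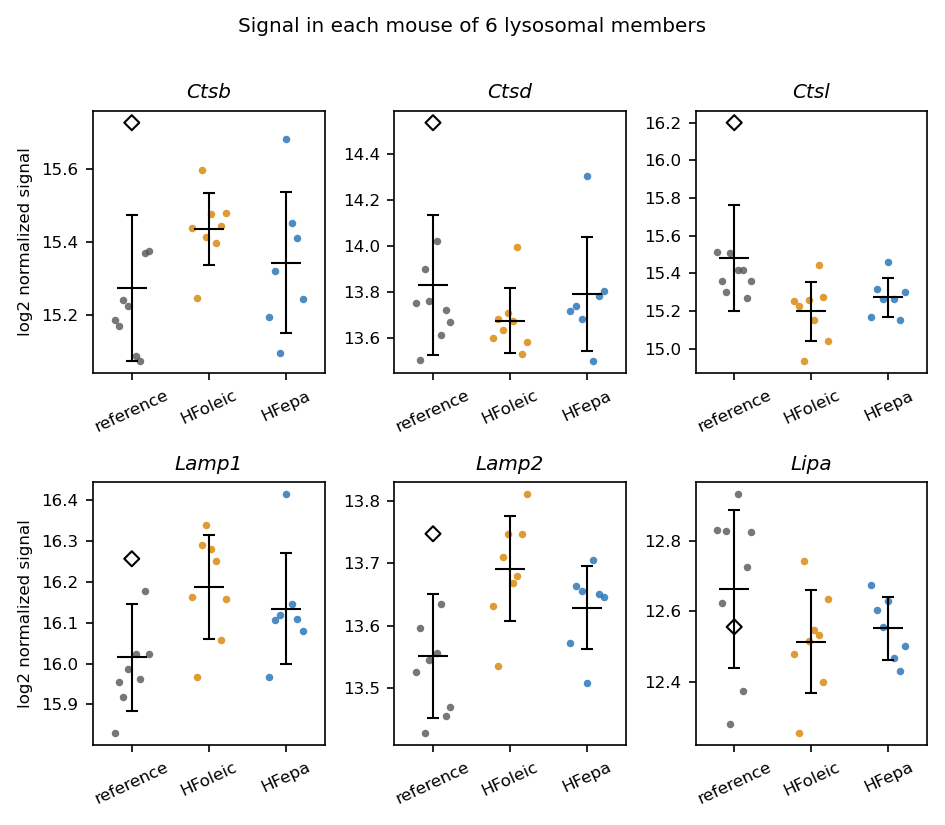
Log2 normalized signal of the brightest probe in every mouse for 3 cathepsins, the membrane proteins Lamp1 and Lamp2 and the acid lipase Lipa, with the mean and SD of each group. Reference replicate 5 (open diamond) is the highest reference mouse for all but Lipa, at 16.20 for Ctsl where the other reference mice end at 15.51.

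Of the other hydrolases, Gusb fell in HFoleic. Gusb (beta-glucuronidase) was 10.30 to 10.95 (median 10.64) in reference, 10.09 to 10.58 (median 10.16) in HFoleic and 10.28 to 10.51 (median 10.47) in HFepa. In HFoleic, 5 of 8 mice were below every reference mouse. It fell by 0.38 ± 0.09 (1.30-fold, adjusted p = 0.0113), and HFepa differed by -0.20 ± 0.09 (adjusted p = 0.345). By slide the HFoleic difference was -0.44 to -0.34, and without reference replicate 5 it was -0.34 (adjusted p = 0.02). Gusb is often used as a reference gene for normalization. Lipa, the acid lipase that digests lipid droplets and lipoproteins in the lysosome, was 12.28 to 12.93 in reference, 12.26 to 12.74 in HFoleic and 12.43 to 12.68 in HFepa. Its differences were -0.15 ± 0.08 (adjusted p = 0.302) and -0.11 ± 0.09 (adjusted p = 0.625). Hexa, Neu1 and Psap differed by at most 0.10 in either group.

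Positions of the probes of the 7 called members, in build mm9, are chr6:129492254-129492313 (Gabarapl1), chr14:48160711-48160770 (Atg14), chr11:61591022-61591081 (Ulk2), chrX:137598365-137598424 (Atg4a), chr19:6262231-6262290 (Atg2a), chr2:4941834-4941893 (Optn) and chr5:130465133-130465192 (Gusb). Each was designed on a RefSeq mRNA of its gene, as were the brightest probes of 48 of the 51 members.

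Different probes of a gene did not always move together. Of the 30 members with several tested probes, all probes had 1 sign in 17, in HFoleic and in HFepa alike. Over all 99 member probes, 13 were called in HFoleic (5 higher, 8 lower) against 7.23% of all tested probes, and 2 in HFepa against 0.393%. Gabarapl1 and Optn were called on both of their probes in HFoleic, whereas Bnip3l, Ctsl, Lamp2 and Ctsh were called there on a dimmer probe only. A Ctsl probe designed on a cDNA other than its RefSeq mRNA, 1.9 kb from the brightest, was 8.13 to 8.99 in reference, 7.72 to 8.28 in HFoleic and 7.67 to 8.22 in HFepa. It was lower in both high-fat groups, by -0.45 (adjusted p = 0.00756) and -0.52 (adjusted p = 0.0282). For Lamp2 and Ctsh the dimmer probes fell in HFoleic (-0.37, adjusted p = 0.0353, and -0.35, adjusted p = 0.00842) while their brightest probes, 33.4 and 20.8 kb away, had differences of 0.14 and 0.15, so that no direction is given for these symbols.

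**Figure D4:**
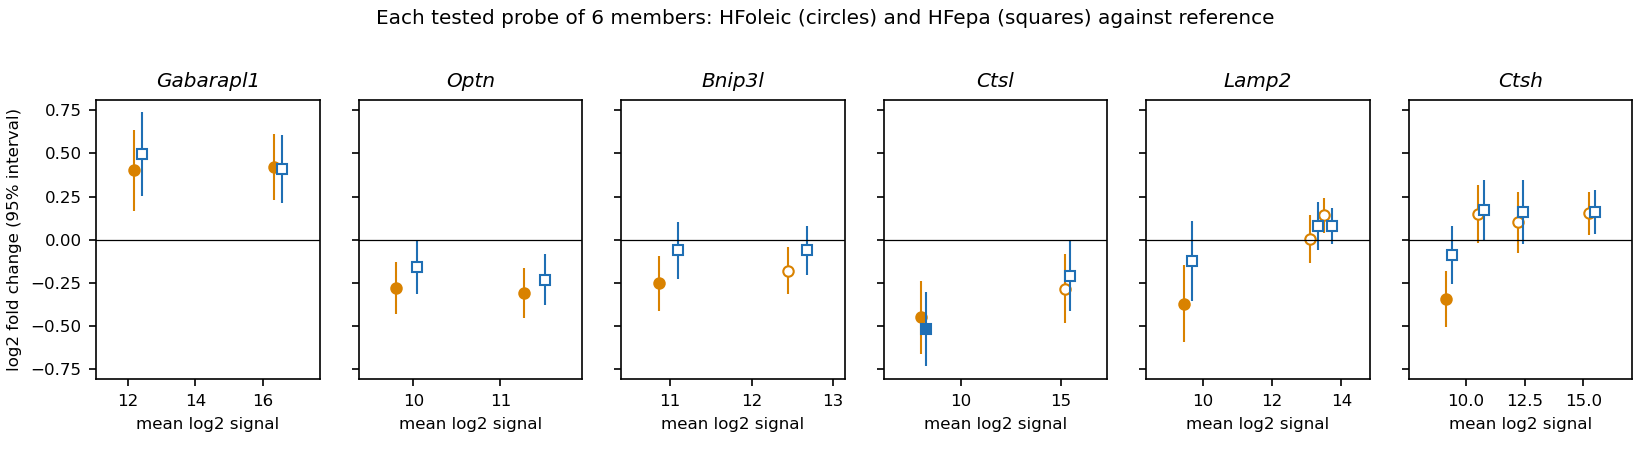
Log2 fold change against reference, with its 95% interval, of every tested probe of 6 members, placed by the probe's mean log2 signal over 24 mice, for HFoleic (orange circles) and HFepa (blue squares). Filled symbols passed the test. Probes of Gabarapl1 and of Optn lie on 1 side of 0, and the dimmest probes of Lamp2 and Ctsh lie below 0 where their brightest lie above it.

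The third question is whether the lineages differed under the high-fat diet. Between HFepa and HFoleic no member passed, and 0% of all gene symbols did. At an unadjusted p under 0.05 were 3 members, against 9.96% of all symbols: Atg13 (given above), Bnip3 (0.25 ± 0.10) and Map1lc3b (0.15 ± 0.06), both with an adjusted p of 0.425 in the limma fit. Of the dimmer probes, 1 of Ctsh (0.26 ± 0.08, limma adjusted p = 0.307) and 1 of Atg10 (-0.30 ± 0.11, adjusted p = 0.333) came closest. The 95% interval of each of the 51 differences, taken 1 at a time, lay inside -0.5 to 0.5. That margin is wide: on the brightest probes, the largest difference of a member from reference was 0.42. Against reference, 47 of the 51 intervals in HFoleic and 49 in HFepa lay inside it too. The margin therefore cannot exclude a lineage difference as large as those from reference. For Gabarapl1 and Atg14 the intervals were -0.22 to 0.19 (difference -0.01) and -0.12 to 0.20 (difference 0.04). The called members were picked by how far HFoleic lay from reference, which by itself favours a HFepa mean in between. As for Gabarapl1, HFepa lay between the reference and HFoleic means for every other called member but Atg14. There the difference between the high-fat groups was 0.18 ± 0.09 for Atg2a (adjusted p = 0.541), 0.17 ± 0.10 for Gusb (adjusted p = 0.577), 0.08 ± 0.07 for Optn (adjusted p = 0.783), -0.09 ± 0.12 for Ulk2 (adjusted p = 0.853) and -0.13 ± 0.07 for Atg4a (adjusted p = 0.573). A p that misses the threshold does not show that the lineages were alike.

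Further genes of the pathway were taken from 6 lists, with 142 tested symbols of 149 listed. In HFoleic 15 of them passed (10.6%, against 8.07% of all symbols), 8 higher and 7 lower, with a median difference of 0. In HFepa 2 passed (1.41%, against 0.391%) and between the high-fat groups none did. Ids (iduronate sulfatase, a hydrolase of sulfated sugars) rose in both high-fat groups, from a mean of 9.94 ± 0.15 (SD) in reference to 10.29 ± 0.14 in HFoleic (adjusted p = 0.00301) and 10.27 ± 0.11 in HFepa (adjusted p = 0.0377). Flcn (folliculin), which works on the lysosome with the GTPases that recruit mTORC1, rose from 10.69 ± 0.13 (SD) by 0.31 ± 0.09 (SE) in HFoleic (adjusted p = 0.0375) and by 0.46 ± 0.09 in HFepa (adjusted p = 0.0282). Without reference replicate 5, 11 were called in HFoleic and 1 in HFepa, against 8.19% and 0.258% of all symbols.

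The other calls were in HFoleic, in 5 of the 6 lists. Of all symbols 8.07% were called in HFoleic. By list the share was 22.7% for other autophagy machinery and 17.1% for other lysosomal hydrolases. It was 6.45% for nutrient sensing, 6.25% for the vacuolar ATPase, 4% for membrane and sorting genes and 0% for receptors. The lists are small, and no list was tested as a whole. Of the 22 tested genes of other autophagy machinery 5 passed: Tmem41b, a membrane protein of the endoplasmic reticulum, rose by 0.38 ± 0.08 (adjusted p = 0.00605) and Wdr45b by 0.56 ± 0.14, while Sh3glb1, Atg16l2 and Vamp8 fell by 0.25, 0.46 and 0.18. The rise of Wdr45b was uneven, with an SD of 0.45 in HFoleic against 0.15 in reference and 6 HFoleic mice above the reference mean. Of 35 other lysosomal hydrolases 6 passed. Sgsh, another sulfatase, fell by 0.57 ± 0.12 (adjusted p = 0.00481) and the cathepsin Ctsf fell by 0.27 ± 0.06 (adjusted p = 0.00852), whereas the cathepsin Ctsc, Idua, Acp5 and Ids were higher. Of 16 subunits of the vacuolar ATPase, the pump that acidifies the lysosome, Atp6v0c passed (-0.18 ± 0.05, adjusted p = 0.0441). The receptors had no call among 13, the nutrient sensing genes Flcn and Rictor (-0.19 ± 0.06) among 31, and the membrane and sorting genes Slc17a5 (0.47 ± 0.13), the sialic acid exporter, among 25.

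**Figure D5:**
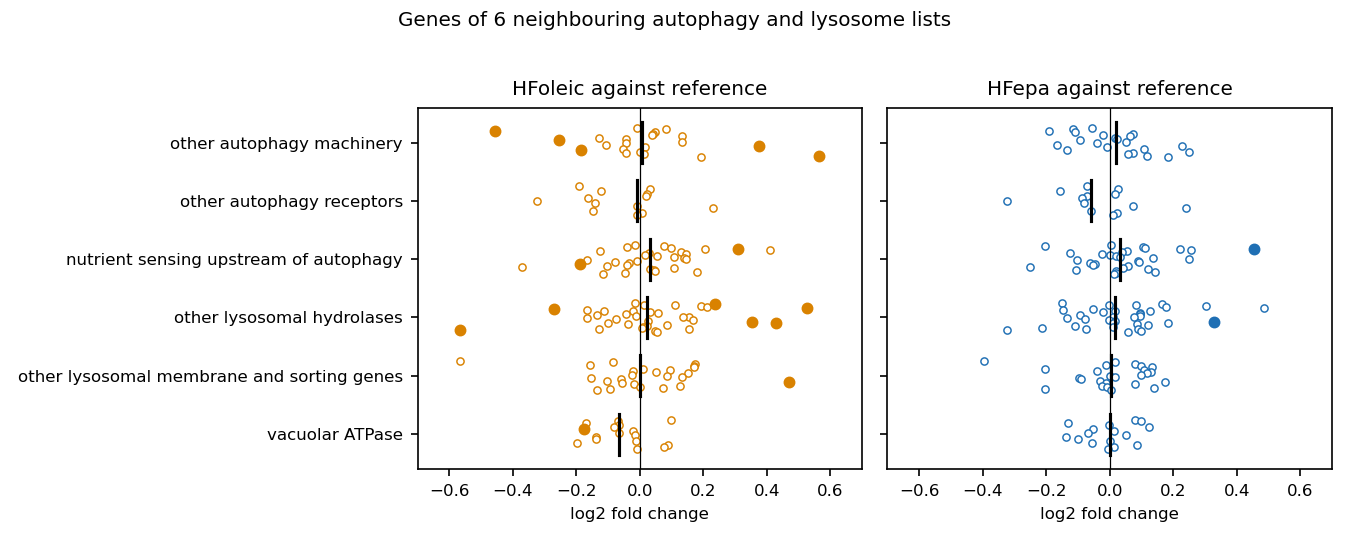
Log2 fold change against reference of the 142 tested genes of 6 lists around the members, in HFoleic (left) and HFepa (right). Each point is a gene on its brightest probe, filled where it passed (15 on the left, 2 on the right), and the black bar is the median of the list.

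Reference replicate 8 lay at the HFoleic end of the reference group for 5 of the 7 called members (Gabarapl1, Atg14, Ulk2, Atg2a and Optn). Without it 10 members were called in HFoleic and 3 in HFepa, which were Atg14, Gabarapl1 and Atg2a, while the share over all gene symbols was 11.2% in HFoleic and 1.82% in HFepa. A score of clock genes, the mean standardized signal of genes that peak with Per2 minus that of genes that peak with Arntl (Bmal1), was -2.50 to 1.14 in reference, -1.08 to 2.78 in HFoleic and -2.41 to 3.82 in HFepa. In reference, the value of -2.50 was that of replicate 5 and the value of 1.14 that of replicate 8. With this score as a covariate, 2 members were called in HFoleic (Optn, -0.34, adjusted p = 0.021, and Atg13, 0.29, adjusted p = 0.0377) and none in HFepa, while over all gene symbols the calls in HFoleic went from 1629 to 537. The HFoleic differences were then 0.33 for Gabarapl1 (adjusted p = 0.0742), 0.29 for Atg14 (0.0683), -0.32 for Atg2a (0.063) and -0.35 for Gusb (0.0674). The part of the clock in these results was not tested.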

How the data were processed

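Liver RNA of 24 mice was labelled with Cy3 and hybridised to 1 array each. Per the file headers, the authors deposited the text output of Agilent Feature Extraction 10.10.1.1, in which the median signal of a spot is an intensity without normalization. An alternative was the log2 values that the authors deposited after a filter and quantile normalization of the median signal. That filter is not given in the sources used here, and the submitters' processing notes name limma.

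The labels gave each sample its group and replicate number. Log2 median signals were averaged over the spots of a probe, leaving out spots marked as outliers. A probe was kept if, in 1 group or more, 75% or more of its arrays had it well above background, and the 30003 kept probes were quantile normalized. A limma fit (version 3.58.1, R 4.3.3, lmFit and eBayes) of group means over all 24 arrays gave 3 two-sided comparisons, each adjusted by Benjamini-Hochberg over all tested probes, with calls at an adjusted p under 0.05. SE and 95% intervals are those of the fit. The fit was tested on simulated data with known changes. Figures and promoter searches used Python 3.11.15, pandas 2.3.3 and matplotlib 3.10.9, and tables used version 1.17.8 of data.table. The number of arrays limits the precision.

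The members and all lists were chosen with earlier results of these data known. Values are given for members called on any probe in any comparison, for the 8 members with the smallest p in each comparison, for 14 members central to the pathway whatever their values (Tfeb, Ulk1, Becn1, Map1lc3a, Map1lc3b, Gabarapl1, Sqstm1, Lamp1, Lamp2, Ctsb, Ctsd, Ctsl, Lipa and Mtor), and, of the 6 wider lists, for at most the 6 called genes with the smallest p in each comparison. The remaining called genes of those lists fall outside this rule and are given because they were called, a choice made after their values were seen. Alternatives were other signal columns, scalings, filters and probe rules, the slide, the slide row, the replicate number and the clock score in the fit, a t-test per probe and each array left out. Probe positions are those of the scanner files (mm9) and promoter windows are RefSeq (GRCm38.p6). The 2 builds were not mixed. Protein sequences were not used here.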

Additional observations from a re-analysis of the deposited data

Results flagged for a closer look

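Within a group, 11 values stood far from the rest, of 87 sets of 1 gene in 1 group that were checked, and chance alone marks about 1 in 20 such sets. Of these 11, 6 were of reference replicate 5. Its Ctsl was 16.20, where the next reference mouse had 15.51, its Ctsb 15.73 (next 15.38) and its Ctsd 14.54 (next 14.02). In the same mouse Atg3 was low at 12.27 (next 12.66), as were Atg10 at 7.40 (next 7.73) and Becn1 at 8.60 (next 8.86). Reference replicate 8 had an Atg2a of 11.99, below the next reference mouse at 12.40. HFepa replicate 4 was high for Ctsd at 14.30 (next 13.80) and Lamp1 at 16.42 (next 16.15). HFoleic replicate 6 had the highest Ctsd of its group at 13.99 (next 13.71), and HFepa replicate 3 the lowest Ulk1 at 12.91 (next 13.08).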

How the results depend on the processing

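No call of a member or of a wider list turned its direction under any alternative. Between HFepa and HFoleic no member and no gene of the wider lists was called under any of them. The 7 members called in HFoleic became 2 with the clock score as a covariate, and 5 without a filter on dim probes or with the methods' t-test, both of which lost Ulk2 and Atg4a. The share of all gene symbols called was 2.66% with the clock score, 5.31% without a filter and 6.58% with the t-test. With the processed signal 7 members were called, against 7.69% of all symbols, but Optn (-0.25, adjusted p = 0.0538) and Ulk2 were lost and Atg13 and Ctsl gained. The 15 genes of the wider lists became 3 with the clock score and 9 without a filter on dim probes. The 1 member called in HFepa became 2 with normexp background correction, the stricter filter or the slide as a block, and 0 with 75th percentile scaling of the median signal, no filter, the clock score or the methods' t-test. Over all gene symbols the HFepa share was 0.451% with normexp, 0.64% with the stricter filter and 0.391% with the slide. It was 0.262% with 75th percentile scaling of the median signal, 0.0446% with the clock score, and 0% without a filter or with the t-test. The 2 genes of the wider lists called in HFepa became 1 with the processed signal, the deposited table or 75th percentile scaling of the median signal, and 0 without a filter, with the replicate block, with the clock score or with the methods' t-test. The HFepa share of all symbols was 0.168% with the processed signal, 0.342% with the deposited table and 0.347% with the replicate block. The cause was not tested. Leaving out 1 mouse at a time gave 5 to 10 members in HFoleic and 0 to 3 in HFepa, where the share over all gene symbols was 5.95% to 11.2% and 0% to 1.82%, and 9 to 21 and 0 to 3 genes of the wider lists.

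With the replicate block, 7 members were called in HFoleic and 1 in HFepa, and 12 genes of the wider lists in HFoleic. Of all gene symbols 6.48% were called in HFoleic and 0.347% in HFepa. Samples with the same number share only that number: the deviations of 21 same-numbered pairs correlated at -0.302 to 0.349, with 5 above 0.1. The number of arrays limits the precision: the median 95% interval of a member reached 0.146 to either side in HFoleic and 0.151 in HFepa.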
